A study of Mesocentrotus franciscanus with 18 samples.

Results

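A set of 60 Trinity gene groupings, out of 127198 in the table, had a lower level in Large than in Small red sea urchins (*Mesocentrotus franciscanus*) in every tissue and every sampling year. The set was led in abundance by muscle actin, tropomyosin and a myosin, and it also held 4 groupings without a single count in any Large library. The members were chosen from the measured values. Counts were divided by the library total and multiplied by 1000000 (CPM), the difference of log2(CPM + 1), Large minus Small, was taken within each of the 9 pairs of libraries of the same tissue and year, and the 60 groupings whose largest difference was lowest were kept. A grouping is a set of assembled transcripts that the assembler placed together, and it is close to a gene but not always a whole one.

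RNA-Seq was made on Large and Small wild-collected animals, from the muscle of Aristotle's lantern (ALM, the chewing apparatus), the esophagus (ES) and the radial nerve (RN). There was 1 library for each tissue, size and sampling year (2010, 2011 and 2013), so that each of the groups ALM-L, ALM-S, ES-L, ES-S, RN-L and RN-S had 3 libraries, 18 in all. Each library was a pool of RNA from several animals, and size stands here for age, Large for older and Small for younger animals. Library totals ranged from 7383210 to 11547218 counts. The 3 RN-L libraries and the RN-S libraries of 2010 and 2011 have names of other number series than the remaining libraries, so that size and library series cannot be told apart in RN, while all ALM and ES libraries have names of a single series.

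Muscle contracts as myosin filaments pull on actin filaments, and tropomyosin lies along actin and controls where myosin can bind. The lantern muscle is rich in these proteins, and the esophagus has a muscle layer of its own. The radial nerve runs along the inner side of the test beside the tube feet. In bulk samples of this kind, fewer cells of a type and less RNA per cell cannot be told apart.

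The names of 11 of the 60 members came from a match of their counts with those that the authors printed for genes of the purple sea urchin *Strongylocentrotus purpuratus* (SPU genes). The printed genes used were those that the authors called different by size in a tissue, so unchanged genes could not be linked. The counts were equal for 4 members (Bmp1/TldL2, Ams, Gpx1_1 and Gamt). The other 7 held at least 95% of the printed counts, so their names, those of the muscle genes among them, are less certain. The other 49 are given by their Trinity number alone, with no role. Of the 11, Msclact (DN2_c108_g1, SPU_006797) is a muscle actin, Tropmy1 (DN20_c8_g1, SPU_000128) a tropomyosin and My18A (DN13_c0_g1, SPU_010054) a myosin. Whether My18A is the myosin that drives muscle contraction was not examined. Muscle actin is the only member for which a sequence was at hand, the primer pair designed by the authors for this gene, shown here because the gene made up most of the members' counts.
Msclact forward primer: ggtcaggtcatcactattg
Msclact reverse primer: gctgttgtatgtggtctc

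Because all 18 libraries entered the choice, the size differences of the members are given as a description, without a test. The largest of a member's 9 differences ranged from -1.99 (DN13455_c0_g1) to -0.23 (DN438_c0_g1). The last members inside the limit were DN60597_c0_g2 at -0.24 and DN438_c0_g1 at -0.23, and the first groupings outside it were Sm30E (DN16068_c0_g2), a spicule matrix gene, at -0.23 and DN198_c3_g1 at -0.22, so the limit falls in a continuous series of values. Among all groupings, 239 had all 9 differences below 0, and 727 had all 9 above 0.

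**Figure D1:**
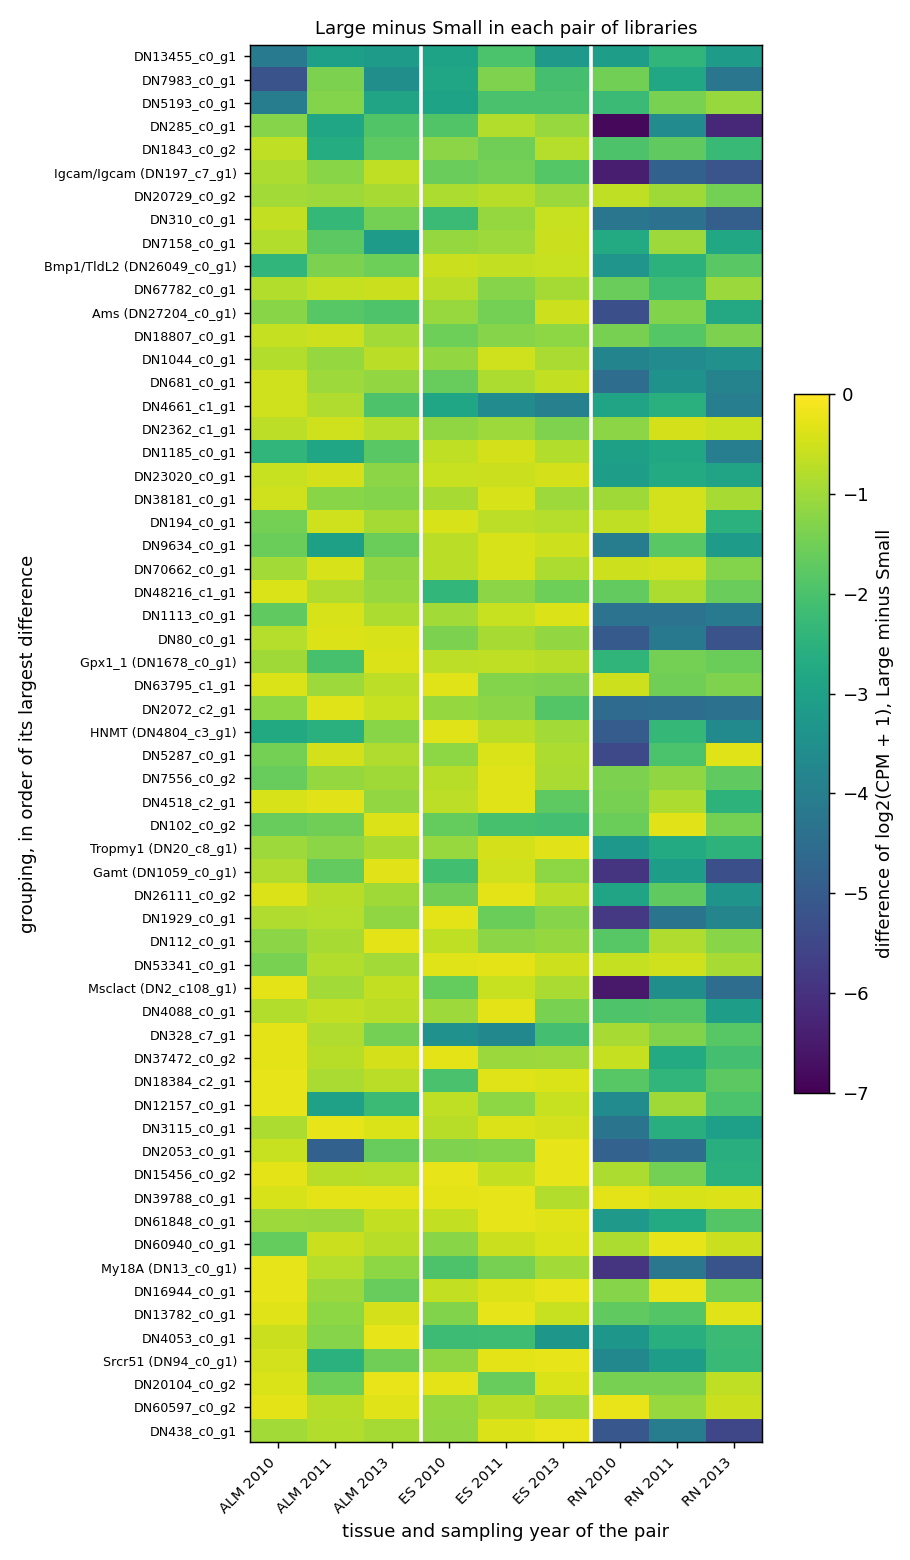
Difference of log2(CPM + 1), Large minus Small, for the 60 groupings (rows, in order of their largest difference) in the 9 pairs of libraries (columns, by tissue and year). The RN columns hold most of the deepest differences, and the ALM and ES columns most of those nearest to 0.

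The differences were deepest in RN. The median over the members of each member's middle difference of 3 years stood at -2.29 for RN, -0.89 for ES and -0.86 for ALM. The middle difference was lowest in RN for 46 members, in ALM for 9 and in ES for 5. The same shares over all groupings were not computed. Over all groupings, too, RN-L had the largest share called lower by edgeR, 10.3%, against 0.00408% in ALM-L and 0% in ES-L. Adding 1 to the CPM also shrinks differences at levels near or below 1 CPM. The depth in RN is therefore not read as a trait of the members. The pair that set a member's rank, the one with the largest difference, lay in ALM for 23 members, in ES for 30 and in RN for 7.

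All 3 Large libraries lay below all 3 Small libraries for 50 members in ALM, against 1.68% of all groupings, for 45 in ES, against 4.06%, and for 58 in RN, against 4.85%. For 7 members all 9 Large libraries lay below all 9 Small ones across tissues, against 0.0134% of all groupings. These counts follow from the way the members were chosen, and nothing is read from them.

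As a further description, the same libraries were fitted by size within each tissue with edgeR. In RN-L, 47 of 48 members that passed the filter were called lower, against 10.3% of all groupings, at a median log2 fold change of -4.04. In ALM-L, 0 of 48 were called by edgeR, against 0.00408% of all groupings, at a median of -1.44, with 39 at an unadjusted p under 0.05, while DESeq2 called 16, against 0.735%. In ES-L, 0 of 43 were called by edgeR, against 0%, at a median of -1.16, with 23 at an unadjusted p under 0.05, while DESeq2 called 10, against 0.596%. The rule used this contrast, so nothing is read from these counts.

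The deepest member by the rule was DN13455_c0_g1. It had 0 counts in all 9 Large libraries. It had 155, 84 and 85 counts in ALM-S, 60, 27 and 81 in ES-S and 84, 42 and 64 in RN-S (2010, 2011 and 2013). No Small library came near 0. Between tissues of Small animals it was called higher in ALM-S than in ES-S, by a log2 fold change of 1.77 ± 0.55 (SE, edgeR adjusted p = 0.0207). Against a floor of 3 counts over the 9 Large libraries together, its pooled level was at least 213-fold lower in Large animals.

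A further 3 members were at 0 in every Large library, at much lower counts in Small animals. DN48216_c1_g1 had from 3 to 38 counts in the Small libraries (median 12) and was at least 44.7-fold lower in Large animals by the same floor. DN67782_c0_g1 had from 5 to 35 (median 9) and was at least 35.3-fold lower. DN70662_c0_g1 had from 3 to 13 (median 6) and was at least 20.01-fold lower. A library with so few counts cannot show a level below that of a few counts, so absence is not shown for these 3. In the whole table, 9 groupings had counts in all Small libraries and none in any Large library, and 1 grouping had the opposite pattern.

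DN4661_c1_g1 came close to this pattern, with 1 count in ALM-L of 2013 and 0 in the other Large libraries. In Small animals it had 4, 9 and 35 counts in ALM-S, 58, 102 and 142 in ES-S and 73, 48 and 124 in RN-S. Its lowest values among the Small libraries were therefore those of ALM-S.

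DN7983_c0_g1 was second by the rule. It had 4.60, 11.5 and 1.93 CPM in ALM-L, against 205, 31.5 and 33.3 CPM in ALM-S. It had 1.52, 3.69 and 2.14 CPM in ES-L, against 17.4, 10.9 and 12.2 CPM in ES-S. The groups did not overlap in any tissue, and ALM-S of 2010 stood far above the other libraries. In RN it had 0.12, 0.14 and 0.41 CPM in RN-L, against 2.14, 7.07 and 25.6 CPM in RN-S.

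DN5193_c0_g1 followed, with 0.27, 4.47 and 0.79 CPM in ALM-L against 19.97, 12.5 and 12.5 CPM in ALM-S. In ES it had 0.00, 1.14 and 0.23 CPM in ES-L against 6.74, 7.60 and 3.97 CPM in ES-S. RN-L had 1.12, 2.57 and 2.94 CPM against 9.02, 8.49 and 7.36 CPM in RN-S. Its middle difference was deeper in ALM than in RN, though not the difference of 2011, while 46 members had their lowest middle difference in RN.

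The other unnamed members among the 10 deepest differed in level. DN1843_c0_g2 averaged 0.592 CPM over the Large libraries and 3.85 CPM over the Small ones. Another grouping of its Trinity component, DN1843_c0_g1, was far more abundant, at 156 CPM in Large and 210 CPM in Small animals. It was lower in Large animals in 6 of the 9 pairs and higher in 3. DN20729_c0_g2 averaged 3.91 CPM in Large and 8.47 CPM in Small animals, with differences between -1.46 and -0.66 in the 9 pairs, a narrow range. DN310_c0_g1 averaged 38.6 CPM in Large and 127 CPM in Small animals. DN7158_c0_g1 had its deepest difference, -3.12, in ALM of 2013, and its largest, -0.57, in ES of 2013.

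**Figure D2:**
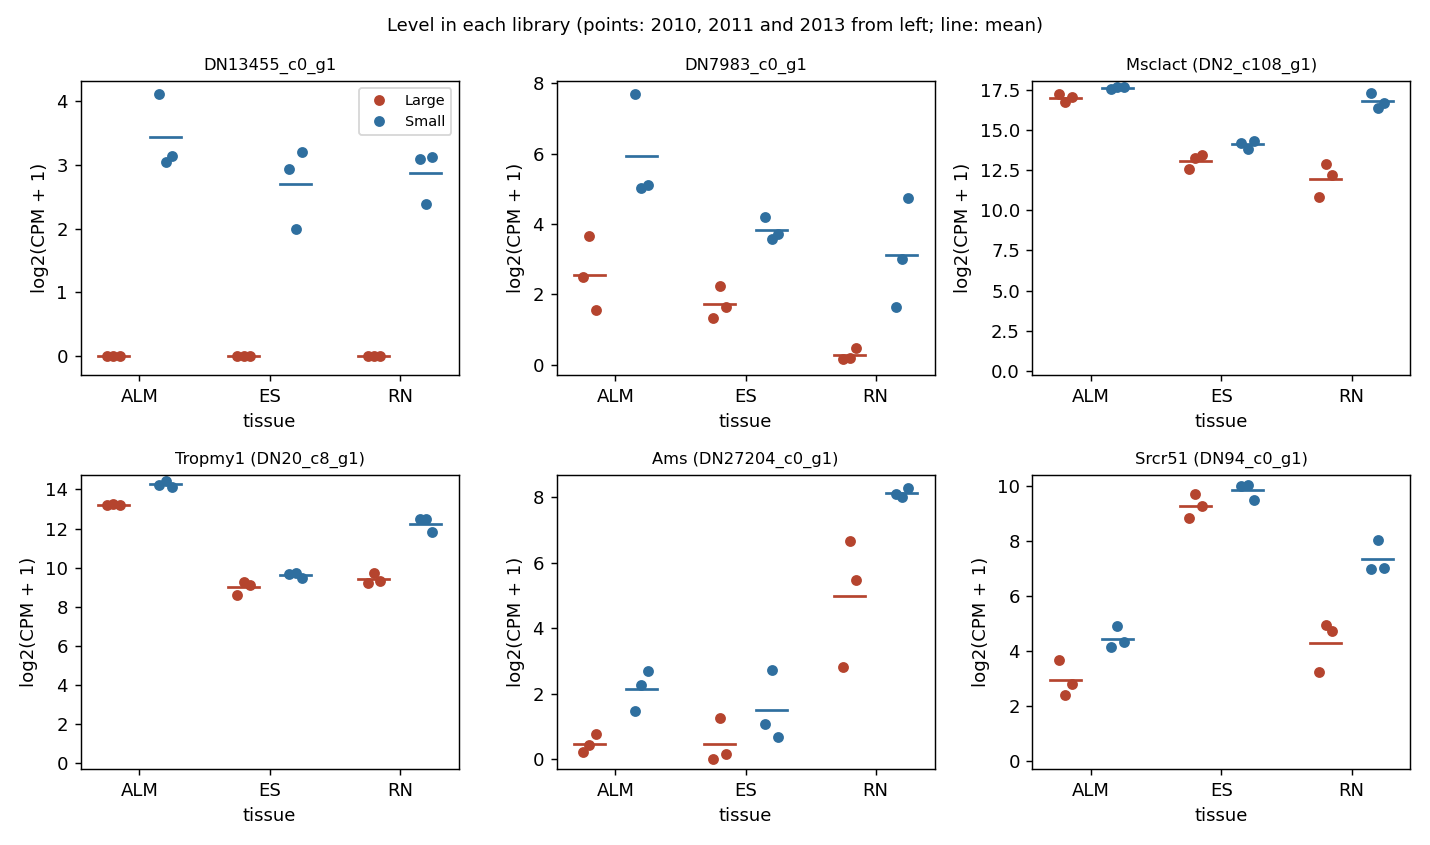
Level as log2(CPM + 1) in each library of 6 groupings, for Large (left of each pair) and Small animals in ALM, ES and RN, with points for 2010, 2011 and 2013 and a line at the mean. DN13455_c0_g1 is at 0 in all 9 Large libraries, and muscle actin and tropomyosin are lower in RN-L than in RN-S by a wider gap than in ALM or ES.

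Muscle actin made up most of the members' counts. Msclact took 15.95, 11.02 and 14.02% of all counts in ALM-L, against 19.4, 21.5 and 21.9% in ALM-S. In ES it took 0.617, 0.974 and 1.11% in ES-L, against 1.93, 1.46 and 2.08% in ES-S. In RN it took 0.181, 0.752 and 0.480% in RN-L, against 16.7, 8.58 and 10.8% in RN-S. The groups did not overlap in any tissue, and RN-S was nearer to ALM-S than to RN-L on a log scale.

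Tropmy1 was lower than muscle actin in every group. It averaged 9575 ± 70.5 CPM in ALM-L and 19837 ± 2265 CPM in ALM-S (SD, n = 3 each). It averaged 526 ± 120 CPM in ES-L and 794 ± 84.8 CPM in ES-S, and 695 ± 140 CPM in RN-L and 4964 ± 1179 CPM in RN-S. My18A differed by -0.26, -0.77 and -1.18 (log2) in ALM, by -1.97, -1.43 and -0.98 in ES and by -5.94, -4.24 and -5.19 in RN. The smallest of the 9 differences of My18A came from the ALM pair of 2010, at 18215 CPM in ALM-L and 21840 CPM in ALM-S.

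The remaining members among the 5 most abundant in Small animals were DN80_c0_g1 and DN197_c7_g1, which is linked to SPU_000441, an uncharacterized gene named Igcam/Igcam. DN80_c0_g1 had 7384, 9996 and 5992 CPM in ALM-L, against 12708, 12861 and 7978 CPM in ALM-S. DN197_c7_g1 had 4211, 3423 and 3221 CPM in ALM-L, against 7633, 8130 and 5113 CPM in ALM-S. In RN, DN197_c7_g1 had 27.4, 52.4 and 37.1 CPM in RN-L, against 2404, 1518 and 1354 CPM in RN-S. DN285_c0_g1, linked to SPU_005715, which has no name, had the deepest single difference of the linked members, with differences between -6.85 and -0.81.

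Together the 60 members took 20.6, 15.4 and 17.7% of the counts of the ALM-L libraries, against 27.0, 29.6 and 29.0% in ALM-S. They took 0.883, 1.29 and 1.37% in ES-L, against 2.55, 2.05 and 2.55% in ES-S. They took 0.284, 0.926 and 0.611% in RN-L, against 18.4, 10.02 and 12.2% in RN-S. Without muscle actin the other 59 members took from 0.103 to 0.174% in RN-L and from 1.34 to 1.74% in RN-S.

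Muscle markers outside the set were lower in RN-L in 3 of 3 years for each of 4 genes, while in ALM they differed in direction. They could be linked only because the authors printed them as differing by size in some tissue, so unchanged muscle genes could not enter. Their direction is therefore a description of these 4 genes and no independent reading. The projectin-like gene also shares a Trinity component with the member DN1113_c0_g1, so it may not be a gene apart from the set. The 4 muscle markers that are not members (titin, troponin T, alpha-actinin and a projectin-like gene) summed to between 5038 and 10640 CPM in ALM-L and between 11653 and 16687 CPM in ALM-S. Their sum was between 657 and 1885 CPM in ES-L and between 1649 and 1867 CPM in ES-S, where the groups overlapped. It was between 1514 and 1751 CPM in RN-L and between 5681 and 8338 CPM in RN-S. Alpha-actinin carried most of the sum, at 6525 ± 2218 CPM in ALM-L and 11963 ± 1945 CPM in ALM-S. In ALM, alpha-actinin and the projectin-like gene were lower in Large animals in 3 of 3 years, troponin T in 2 and titin in 0. None of the 4 was at 0 in any group, and titin was higher in ALM-L, at 20.4 ± 5.30 CPM, than in ALM-S, at 8.55 ± 7.79 CPM.

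Nerve markers were higher in RN-L. The 4 of 5 that were linked (neurexin, a syntaxin, a synaptotagmin and a syntaxin-binding protein, all parts of synapses) summed to between 447 and 598 CPM in RN-L and between 39.8 and 61.4 CPM in RN-S. The sum in ES-S, between 24.4 and 36.8 CPM, was not far below that of RN-S. Each of the 4 was higher in RN-L than in RN-S in 3 of 3 years. The markers of skeletogenic cells, 13 of 13 linked, summed to between 35.3 and 48.9 CPM in ALM-L and between 246 and 269 CPM in ALM-S, and to between 18.7 and 51.6 CPM in RN-L and between 151 and 335 CPM in RN-S. In ES they stayed between 7.27 and 13.1 CPM in both sizes. The skeletogenic list holds biomineralization genes that the authors reported as lower with age in ALM of these libraries. Its difference in ALM therefore follows from the choice of genes, and nothing is read from it. The authors also reported biomineralization genes as lower with age in RN of these libraries. The difference of this list in RN is therefore a description only. The nerve list likewise holds genes that the authors reported as higher with age in RN, so its difference in RN is a description only. The part of the muscle, nerve and skeletogenic content of the libraries in the size differences of the members was not tested.

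**Figure D3:**
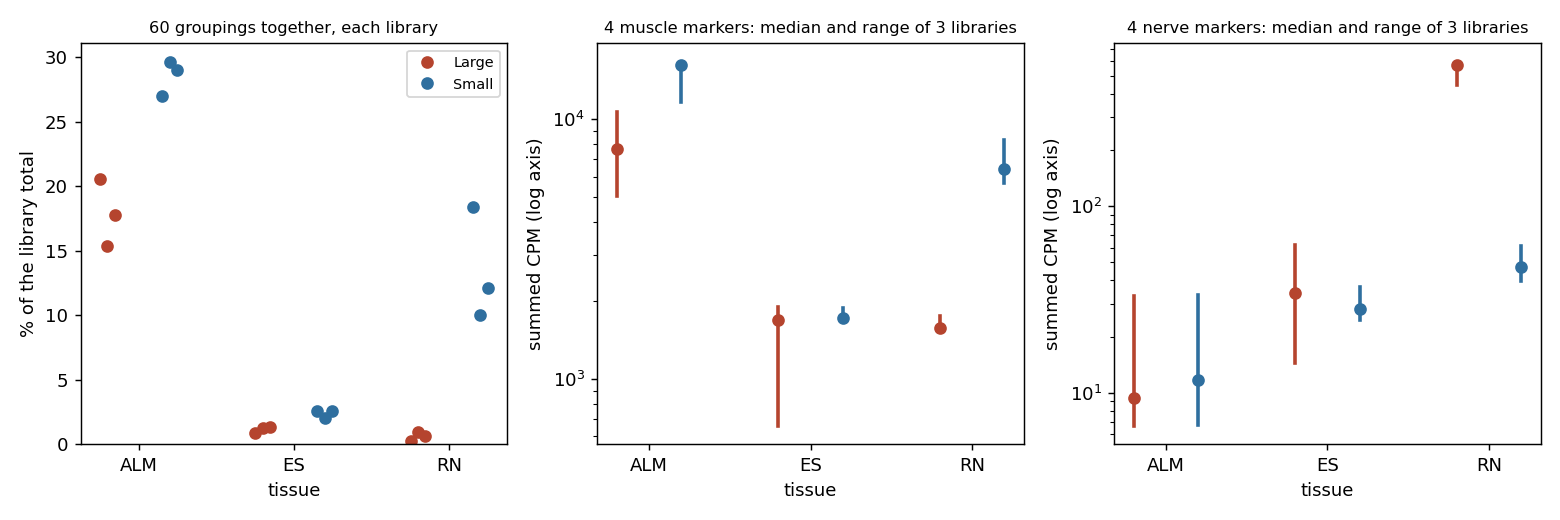
Left, the 60 groupings as % of each library total; middle and right, summed CPM (log axes) of 4 muscle and 4 nerve markers that are not members, as median and range of 3 libraries, for Large (left of each pair) and Small animals. For these markers the muscle sum was higher and the nerve sum lower in RN-S than in RN-L. Only genes that the authors printed as differing by size could serve as markers.

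Immune genes formed a second named group. Ams (DN27204_c0_g1, SPU_021526) encodes amassin, which clots coelomocytes, the cells of the body fluid. It had 5.998, 101 and 43.5 CPM in RN-L, against 271, 255 and 306 CPM in RN-S. It had 0.18, 0.36 and 0.70 CPM in ALM-L, against 1.79, 3.81 and 5.46 CPM in ALM-S. In ES the groups overlapped, with 0.00, 1.40 and 0.11 CPM in ES-L against 1.10, 5.62 and 0.61 CPM in ES-S, and the year 2011 was highest in both sizes.

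Srcr51 (DN94_c0_g1, SPU_006538) encodes a scavenger receptor, a class of proteins that bind microbes, and was highest in the esophagus. It had 466, 855 and 617 CPM in ES-L, against 1037, 1050 and 734 CPM in ES-S, where the 2011 Large library stood above the 2013 Small one. In RN it had 8.50, 30.3 and 25.5 CPM in RN-L, against 125, 262 and 129 CPM in RN-S. The coelomocyte marker MacpfD1, which is not a member, was at low levels in every group. In RN it lay between 0 and 0.304 CPM in RN-L and between 1.31 and 2.59 CPM in RN-S, lower in RN-L in 3 of 3 years like Ams and Srcr51. Of the 3 coelomocyte markers listed it was the only linked one that is not a member, and its part in their differences was not tested. Like the other linked markers, it was printed by the authors as differing by size in some tissue.

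Enzymes made up the rest of the named members. Gamt (DN1059_c0_g1, SPU_007775) makes creatine from guanidinoacetate and had 0.75, 8.94 and 2.53 CPM in RN-L, against 105, 85.1 and 137 CPM in RN-S. Gpx1_1 (DN1678_c0_g1, SPU_028532), a glutathione peroxidase that removes peroxides, had 42.9, 25.5 and 39.9 CPM in ALM-L, against 86.2, 108.3 and 51.5 CPM in ALM-S. HNMT (DN4804_c3_g1, SPU_002185), a histamine N-methyltransferase in mammals, had 121, 99.9 and 56.1 CPM in ES-L, against 153, 167 and 111 CPM in ES-S. For HNMT the ES groups overlapped, and its ALM differences, from -2.76 to -1.24, were deeper than its ES differences, from -0.97 to -0.33. Bmp1/TldL2 (DN26049_c0_g1, SPU_011551), a protease of the family that processes procollagen, had 2.57, 5.90 and 6.33 CPM in ALM-L, against 17.9, 16.9 and 20.2 CPM in ALM-S, and stayed below 1 CPM in all ES libraries. The middle difference of each of these enzymes was deepest in RN, at -5.29 for Gamt, -1.58 for Gpx1_1, -3.66 for HNMT and -2.50 for Bmp1/TldL2.

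The rule did not rank groupings by differences between tissues of Small animals, so these could be tested, though the Small values themselves entered the rule. A member needed counts in all 3 tissues of Small animals. The median of the mean level in Small animals was 19.7 CPM for members, against 0.12 CPM over all groupings. The shares of all groupings given below are not matched for level. They were fitted with edgeR's quasi-likelihood test on the 9 Small libraries, and a call required an absolute log2 fold change above 1 with a Benjamini-Hochberg adjusted p below 0.05. Of the 60 members, 58 passed the filter on low counts. The 3 comparisons share libraries and are not independent.

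Against each of the other tissues of Small animals, more members were called higher in ALM-S than lower. In ALM-S over ES-S, 37 members were called higher and 8 lower, where 16.1% of the 32280 groupings tested were higher and 24.6% lower, and the members' median log2 fold change was 2.49, against -0.09 over all groupings. In RN-S over ALM-S, 7 members were higher and 28 lower, where 13.8% of all groupings were higher and 8.95% lower, with a median of -1.48 against 0. In RN-S over ES-S, 27 members were higher and 6 lower, where 15.1% of all groupings were higher and 18.8% lower, with a median of 1.43 against -0.06.

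A total of 26 members were called higher in ALM-S than in both other tissues, 44.8% of the 58 tested, against 5.88% of all groupings tested. They include muscle actin, tropomyosin, the myosin, DN197_c7_g1, DN285_c0_g1 and Bmp1/TldL2. Their median difference of Large minus Small stood at -3.03 for RN, -0.96 for ALM and -0.87 for ES. The 25 members with no tissue above both others had -1.72 for RN, -0.83 for ALM and -0.94 for ES, at a lower median level of 5.11 CPM in Small animals against 91.0 CPM.

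The members with the widest tissue differences were on both sides. DN1044_c0_g1 was higher in ALM-S than in ES-S by a log2 fold change of 6.76 ± 0.45 (SE, edgeR adjusted p = 6.06e-07), DN2053_c0_g1 by 6.52 ± 0.95 (edgeR adjusted p = 0.000163) and DN1113_c0_g1 by 6.47 ± 0.56 (edgeR adjusted p = 3.23e-06). DN2072_c2_g1 was lower in RN-S than in ALM-S, at -5.32 ± 0.42 (edgeR adjusted p = 6.2e-06). All 4 were called higher in ALM-S than in both other tissues, and DN2053_c0_g1 was uneven by year, with 76.8, 245 and 47.7 CPM in ALM-S.

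Other members were nearly absent from muscle. DN1929_c0_g1 had 135, 147 and 141 CPM in RN-S, 196, 213 and 156 CPM in ES-S and 1.26, 1.47 and 1.85 CPM in ALM-S, a log2 fold change of 5.77 ± 0.29 in RN-S over ALM-S (edgeR adjusted p = 6.58e-07). Its RN-L libraries had 1.37, 6.502 and 9.11 CPM, far below RN-S, while ES-L had 160, 70.3 and 64.6 CPM.

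The members called higher in RN-S than in both other tissues were 3, namely Ams, DN23020_c0_g1 and DN26111_c0_g2, 5.17% of the members tested against 6.21% of all groupings tested. Ams was higher in RN-S than in ES-S by 6.95 ± 0.66 and than in ALM-S by 5.53 ± 0.61 (log2, SE, edgeR adjusted p = 7.76e-06 and 6.3e-05). DN23020_c0_g1 was higher in RN-S than in ES-S by 5.37 ± 0.35 (edgeR adjusted p = 5.41e-07) and DN9634_c0_g1 by 4.47 ± 0.62 (edgeR adjusted p = 0.000146). DN9634_c0_g1 was not called between RN-S and ALM-S. The members called higher in ES-S than in both others were 4, Srcr51, DN102_c0_g2, DN328_c7_g1 and DN4053_c0_g1, 6.90% of the members tested against 15.4% of all groupings tested.

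**Figure D4:**
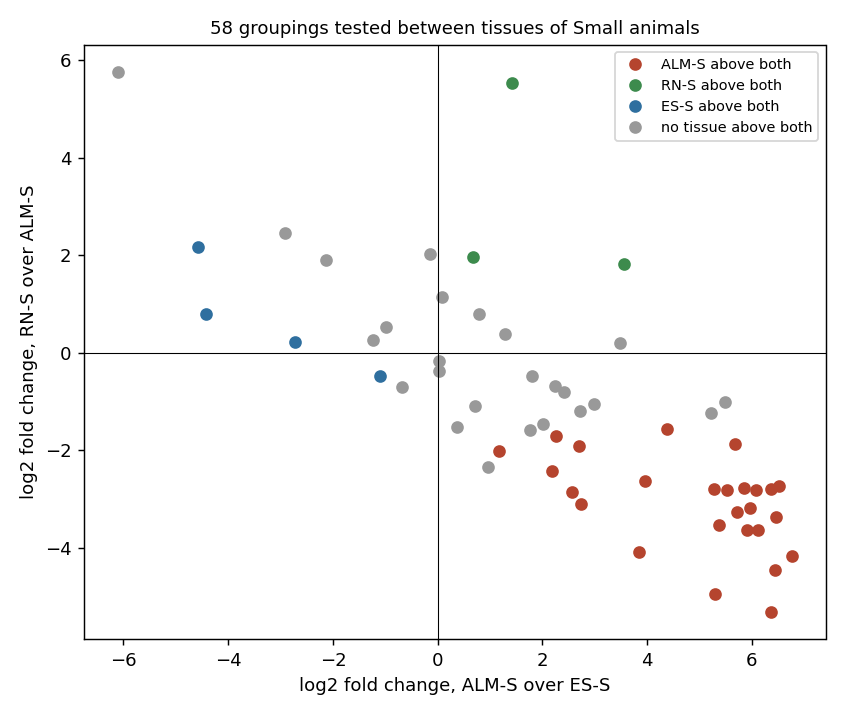
Log2 fold changes between tissues of Small animals (edgeR) for the 58 groupings tested, ALM-S over ES-S on the horizontal and RN-S over ALM-S on the vertical axis, coloured by the tissue called above both others. The 26 groupings above both in ALM-S lie at the lower right, higher than ES-S and RN-S.

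Only 1 RN-S library, that of 2013, has a name of the same series as the ALM and ES libraries. With it as the only RN-S library, a fit added after the data were seen, 24 of 60 members were called in RN-S over ALM-S, against 5.68% of all groupings, and 25 in RN-S over ES-S, against 13.8%. With all 3 RN-S libraries 35 of 58 were called in RN-S over ALM-S, against 22.7%, and 33 in RN-S over ES-S, against 33.9%. In that fit the lone library was assumed to vary like the other groups.

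A choice made on 2 years could be read in the third, which it had not used, a reading added after the data were seen. Of the 60 groupings chosen without 2010, 20 lay below 0 in all 3 tissues in 2010, against 5.72% of the groupings with a mean of at least 1 CPM. The chosen groupings were not held to that level, so the 2 sets are unlike. In 2010, 8 of the 60 lay at exactly 0 in ALM, 7 in ES and 6 in RN. Of those chosen without 2011, 33 did so in 2011, against 9.75%, and of those chosen without 2013, 26 in 2013, against 7.32%. By tissue, the groupings chosen without 2010 were below 0 in 2010 in 23 of 60 cases for ALM, against 18.2% of the groupings with at least 1 CPM, where 29 lay above 0 and the median was 0, in 41 for ES, against 67.1%, and in 40 for RN, against 40.8%. The share for ES of 2010 was therefore near that of all groupings. In 2011 the counts below 0 were 40 for ALM, against 52.9%, 42 for ES, against 37.2%, and 49 for RN, against 42.5%. In 2013 they were 32 for ALM, against 41.6%, 39 for ES, against 33.1%, and 44 for RN, against 39.9%. These sets shared 15, 28 and 21 groupings with the 60 members, and the library series of RN runs through all 3 years.

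Years were compared as values only. The highest of the 3 Small libraries came from the same year in all 3 tissues for 14 members, 23.3%, against 20.2% of all groupings tested, a share near that of the members. DN5287_c0_g1 was low in ALM in 2013 in both sizes, with 4.40 CPM in ALM-L and 8.69 CPM in ALM-S in that year, against 17.3 and 30.6 CPM in ALM-L and 49.9 and 42.2 CPM in ALM-S in 2010 and 2011. With 1 pool per year and size, years cannot be tested.

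A grouping can be part of a gene, so the other groupings of the same Trinity component were examined. No component held more than 1 member. Of the 60 members, 20 had at least 1 other grouping in their component. When all groupings of a component were summed, 13 of these 20 totals had all 9 differences below 0 and 7 did not, while the 40 members alone in their component could not change. Of the 20 such partner groupings with at least 50 counts, 15 had a median difference below 0, one of them only -0.009, and 5 above 0. The share of all groupings with a median below 0 was not computed, so nothing is read from this count. In Small animals 6 of these 20 partners were more abundant than their member. The partner of DN1113_c0_g1 is the projectin-like gene ProjL, which was lower in Large animals in 9 of 9 pairs, while the partner of DN102_c0_g2 averaged 474 CPM in Large and 509 CPM in Small animals, with 5 of 9 pairs below 0.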

How the data were processed

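The authors built a Trinity assembly from trimmed reads, mapped the reads back with Bowtie2 2.3.4 and deposited the estimated counts of RSEM per gene grouping, as whole numbers without normalization (tool names per the submitters' processing notes). Counts that RSEM divided among similar transcripts are uncertain for gene families. All 18 columns were used, and sizes, tissues and years were taken from the sample titles, since another label gave 2010 for every RN sample. The members, gene lists and tests were chosen with earlier results of these data known. CPM are counts divided by the library total and multiplied by 1000000. Groupings were linked to SPU genes where their counts equalled those printed by the authors in at least 20 counts in total. At a total of at least 100, a grouping holding 95% or more of them, or a pair summing to them, was also linked. The printed genes used were those that the authors called different by size in a tissue. Tests between tissues of Small animals used edgeR 4.0.16 in R 4.3.3 with TMM, the filterByExpr defaults and Benjamini-Hochberg adjustment, and were tested on simulated data. DESeq2 1.42.0 was an alternative. Summaries used Python 3.11.15, pandas 2.3.3 and matplotlib 3.10.9. Where p-values are given they measure the spread between pools of different years, not between animals. The floor of 3 counts covers counting error only.

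The text names members with no count in any Large library, the 10 with the lowest largest difference, those linked to an SPU gene, the 5 most abundant in Small animals, the 3 with the largest called difference in each tissue comparison, and those next to the limit of 60. DN4661_c1_g1, DN5287_c0_g1, and the members named only for a tissue class or for a partner grouping, were singled out after their values were seen. Same-year libraries of different tissues came from the same collected animals, and their deviations correlated at 0.0892 to 0.377, so year was fitted as a block as an alternative.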

Additional observations from a re-analysis of the deposited data

How the results depend on the processing

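The choice of members depended on the rule's details more than the tissue comparisons did. Of the 60 members, 34 were chosen again with a pseudocount of 0.1, 37 with TMM-normalized CPM, 15 without ALM, 21 without ES, 33 without RN and 10 with the lowest median in place of the lowest largest difference. Leaving out 1 year kept from 15 to 28, while 47 were kept with a pseudocount of 5, 50 among groupings of at least 1 CPM and 52 with column sums that leave out muscle actin, an alternative added after the data were seen. With TMM the median difference of all groupings of at least 1 CPM stood at 0 for ALM, -0.04 for ES and -0.07 for RN, against 0.12 for ALM, 0.11 for ES and 0.13 for RN by library totals, and 58 of the 60 members kept all 9 differences below 0. Summed by component, 53 of 60 totals had all 9 below 0, of which 40 could not change, and summed by the DN number alone, 42. As a description of size within a tissue, edgeR called 0 members lower in ALM-L and DESeq2 16, edgeR 0 in ES-L and DESeq2 10, and edgeR 47 in RN-L. Leaving out 1 library gave 0 to 0 in ALM, 0 to 16 in ES, the 16 without ES-L of 2010, and 40 to 49 in RN. With year as a replicate block the calls were 0, 0 and 42 lower, and in the tissue comparisons 40 in RN-S over ALM-S, 36 in RN-S over ES-S and 46 in ALM-S over ES-S. Leaving out 1 Small library gave 30 to 38, 29 to 34 and 40 to 44 in the same comparisons. The 9 widest tissue differences, 3 in each comparison, kept their direction and call under every alternative run, and the other named calls were not followed one by one. Members of a few counts per library are limited by depth.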
